A study of Mus musculus with 8 samples.

Results

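The STAR (signal transduction and activation of RNA) family of RNA-binding proteins was followed across 3 mouse fibroblast lines through its 4 members, Khdrbs1, Khdrbs2, Khdrbs3 and Qk, among 15653 genes named on the arrays. Members were found as the probe sets whose RefSeq transcript belongs to one of these genes, which gave 6 probe sets with 5 distinct sets of values, because a pair of Qk probe sets held identical values and was counted once. Khdrbs3 was selected on its values on these same arrays, high in one line and low in the others, so its levels and differences are given as a description, with no test. Khdrbs1, Khdrbs2 and Qk were taken as its relatives, and 4 of the 5 sets of values were therefore tested.

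STAR proteins bind RNA through a single KH domain that is flanked by conserved sequences on both sides, and they act as dimers on short motifs rich in A and U. Most are known as regulators of alternative splicing. Khdrbs1, or Sam68, is made in nearly all cells and is phosphorylated by Src family kinases, whereas Khdrbs2 (SLM1) and Khdrbs3 (SLM2, or T-STAR) are best known from the brain and, for Khdrbs3, the testis, where they control exons of the neurexin transcripts. Qk, or quaking, is best known from myelinating glia, and also acts in smooth muscle cells.

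Ind-8 cells are p53-null fetal fibroblasts that carry a p53 cDNA under a metallothionein promoter, which zinc activates, and they represent the asymmetrically self-renewing state (ASYM). Con-3 cells are p53-null and represent the symmetric state (SYM). The study's methods call Con-3 a vector control line, while the sample labels call it the parent of Ind-8. The tI-3 line derives from Ind-8, expresses an IMPDH II cDNA constitutively, and divides symmetrically although zinc induces p53 (p53SYM). All cultures received 65 µM ZnCl2 for 48 h and 5 µg/ml puromycin, and tI-3 cultures also received G418, for which the sources give different doses. RNA of independent cultures was hybridized to 3 arrays of Ind-8, 3 of Con-3 and 2 of tI-3. Each state is 1 clone, so state, clone and, for tI-3, the added drug cannot be told apart.

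Values are log2 expression after RMA, the authors' background correction and normalization, with probes regrouped by RefSeq transcript. Array medians ran from 6.12 to 6.19. The number of arrays limits the precision, most of all for the 2 arrays of tI-3. A level under 4.30, the 25th percentile of the mean levels of all 22523 probe sets, is called dim here, and markers are called dim by their mean over the 8 arrays. Comparison A is Ind-8 minus Con-3, B is Ind-8 minus tI-3 and C is tI-3 minus Con-3. The 3 comparisons share arrays and are given side by side. Differences were tested with limma on all 8 arrays, and a probe set was called at a p under 0.05 after Benjamini-Hochberg adjustment over all 22523 probe sets. Errors after a difference are standard errors.

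Some arrays stood apart. The 3 control probe sets for 18S ribosomal RNA averaged 10.63 on Con-3 replicate 3 and between 5.58 and 6.46 on the other 7 arrays. The 18 hybridization-control probe sets, which read RNA added to each sample, averaged 9.88 to 10.00 on the 3 Ind-8 arrays and Con-3 replicates 1 and 2. They averaged 10.44 on Con-3 replicate 3, and 10.24 and 10.46 on the tI-3 arrays. This level split the arrays into a low block of 5 and a high block of 3. Only Con-3 has arrays in both blocks, so that B with the block included rests on Con-3 replicate 3 to link the lines.

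The p53 targets read here were lowest in Con-3, the line without induced p53. They differed between Ind-8 and tI-3, although zinc induces p53 in both. Cdkn1a, the p21 inhibitor of cyclin-dependent kinases, averaged 9.66 in Ind-8, 5.86 in Con-3 and 7.44 in tI-3, and Mdm2, the ubiquitin ligase for p53, averaged 10.90, 8.90 and 9.62. The study lists both among the genes it selected on these same arrays as higher in Ind-8 than in both other lines. Their A and B differences are therefore a description, with no test given. Both were called in C, Cdkn1a with a limma adjusted p of 1.93e-05. Trp53 itself was higher in Ind-8 than in Con-3 by 0.53 ± 0.09 (adjusted p = 0.00192) and in tI-3 than in Con-3 by 0.39 ± 0.10 (adjusted p = 0.0144). Impdh2 averaged 12.19 in Ind-8, 12.53 in Con-3 and 12.36 in tI-3, and its fall in A of -0.34 ± 0.08 passed the test (adjusted p = 0.0108). The C difference of -0.17 ± 0.09 did not (adjusted p = 0.182), and neither did the B difference of -0.17 ± 0.09 (adjusted p = 0.163), although both tI-3 arrays, at 12.34 and 12.38, lay above the Ind-8 arrays, at 12.16 to 12.22. Impdh2 was thus not called higher in tI-3 than in either other line, although tI-3 carries the IMPDH II cDNA. Whether this probe set reads that cDNA was not tested. Mt1 and Mt2, the zinc-responsive metallothioneins, averaged 13.88 and 13.33 in Ind-8, 13.73 and 13.45 in Con-3, and 13.62 and 13.07 in tI-3. Mt2 was called lower in tI-3 than in Con-3, at -0.39 ± 0.11 (limma adjusted p = 0.0248). The other differences of Mt1 and Mt2 did not pass.

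Of the 12 fibroblast markers, 9 averaged above the median probe set, Vim (13.89) being the most abundant, while Thy1, Fap and Lum were dim. Among markers of the cell types best known for Khdrbs3 and Qk, the 8 neuron markers held 2 above the median. These were Stmn2, which averaged 10.52 in Ind-8, 10.66 in Con-3 and 11.28 in tI-3, and Eno2, at 8.53, 6.21 and 7.97, whereas Tubb3, Snap25 and Syt1 were dim. None of the 8 oligodendrocyte and Schwann cell markers and none of the 6 germ cell markers averaged above the median. Olig1, Olig2 and Mog were dim, as were Ddx4, Dazl, Sycp3 and Tnp1.

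Khdrbs3 was high in Ind-8 and dim in both other lines. Its probe set (NM_010158) read 7.81, 6.95 and 7.44 on the Ind-8 arrays, 3.76, 3.68 and 3.85 on the Con-3 arrays and 3.47 and 3.48 on the tI-3 arrays. Each Ind-8 array lay above each array of the other lines, by more than 3 log2 units, and the 5 Con-3 and tI-3 arrays all lay under the dim limit. The order was Ind-8 at 7.40 ± 0.43 (SD, n = 3), Con-3 at 3.76 ± 0.09 (SD, n = 3) and tI-3 at 3.48 ± 0.01 (SD, n = 2). Ind-8 exceeded Con-3 by 3.63 and tI-3 by 3.92, and the C difference was -0.29. All 3 are measured against dim levels, where the arrays separate RNA amounts poorly, so no fold ratio is given. This pattern is the one Khdrbs3 was chosen for. Whether more cells made the transcript or each cell held more of it cannot be told apart in bulk RNA. Without Con-3 replicate 3 the A difference of Khdrbs3 was 3.68.

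**Figure D1:**
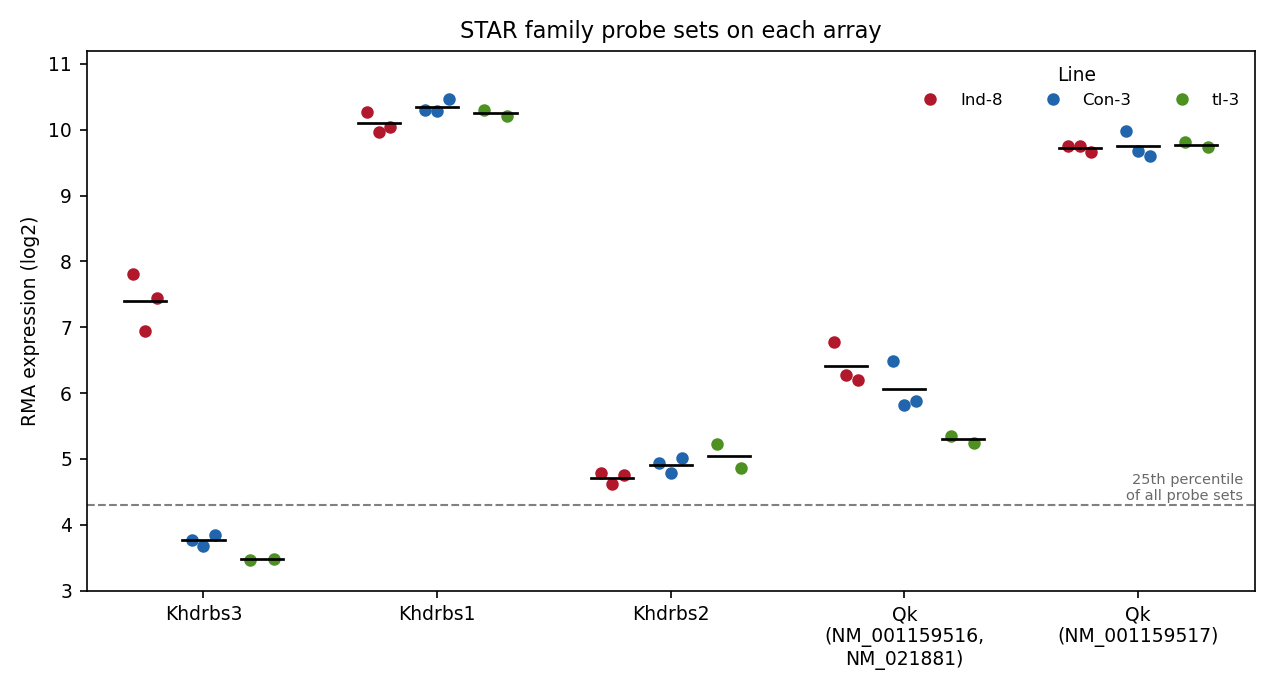
Log2 expression (vertical axis) of the 5 distinct STAR family probe sets on each of the 8 arrays, with 1 point for each array, coloured by line, and bars at the line means. The 3 Ind-8 points of Khdrbs3 lie between 6.95 and 7.81 while its other 5 points lie under the dashed line at 4.30, and the Qk probe set of NM_001159516 and NM_021881 is lowest in tI-3.

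The genes whose profile over the 8 arrays was most like that of Khdrbs3 were taken from the 963 other named genes whose line means spanned at least 1 log2 unit. They included Cers4, a ceramide synthase (Pearson r = 0.988), Qsox2, a sulfhydryl oxidase (0.986), Riox1, a ribosomal oxygenase (0.983), and Ly6e, a membrane-anchored protein (0.982). Over 8 arrays in 3 lines these correlations mostly restate the means of the lines, and they are given as a description. Riox1 averaged 7.81 in Ind-8, 5.13 in Con-3 and 5.21 in tI-3, and Ly6e averaged 10.22, 8.05 and 7.83.

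Genes next to Khdrbs3 in the RefSeq gene order of GRCm38.p6 did not share its step. Of the 4 nearest genes with a probe set on each side, Ccn4, Ndrg1, St3gal1 and Zfat lie on one side and Fam135b, Trappc9, Chrac1 and Ago2 on the other. Their A differences ran from -0.33 to 0.44, their B differences from -0.12 to 0.64 and their C differences from -0.65 to 0.13. Trappc9, which takes part in vesicle transport, was called higher in Ind-8 in A, by 0.44 ± 0.11 (limma adjusted p = 0.0191), and in B, by 0.64 ± 0.13 (adjusted p = 0.0049). Chrac1 was called in B as well, at 0.38 ± 0.10 (adjusted p = 0.0148), and in C, at -0.45 ± 0.10 (adjusted p = 0.00707). Ccn4 was called lower in tI-3 in C, at -0.65 ± 0.17 (adjusted p = 0.0209). Ago2, a small RNA guided nuclease, averaged 9.44 in Ind-8, 9.57 in Con-3 and 9.51 in tI-3.

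**Figure D2:**
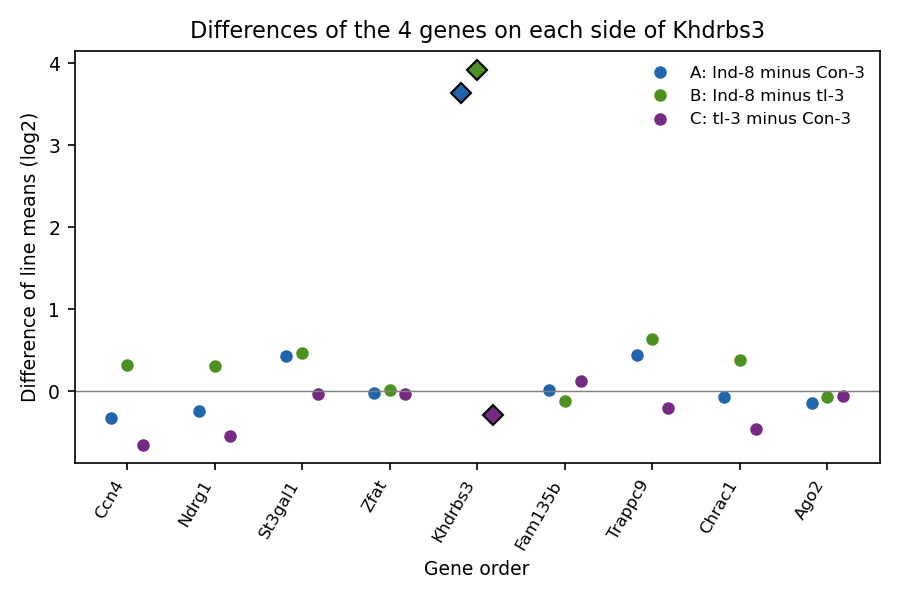
Differences between line means (log2, vertical axis) of the 4 genes on each side of Khdrbs3 in gene order (horizontal axis, not to scale), coloured by comparison. Round points are neighbours, diamonds with a black edge are Khdrbs3 itself, and the neighbours of Khdrbs3 lie between -0.65 and 0.64 beside its own 3.63 and 3.92.

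Khdrbs1, the ubiquitous member, was at a similar level in the 3 lines. It read 10.27, 9.97 and 10.05 on the Ind-8 arrays, 10.30, 10.29 and 10.46 on the Con-3 arrays and 10.29 and 10.20 on the tI-3 arrays. Ind-8 replicate 1 fell among the tI-3 arrays, while Con-3 lay above Ind-8 on each array. The A difference was -0.25 (95% interval -0.48 to -0.03) and did not pass after adjustment (limma adjusted p = 0.111). B was -0.15 (95% interval -0.41 to 0.10) and C was -0.10 (95% interval -0.36 to 0.15), with adjusted p-values of 0.333 and 0.561. With Ind-8 replicate 1 left out, the A difference was -0.34 and passed (limma adjusted p = 0.0467, against a range of 0.0467 to 0.316 over the limma alternatives). The signs of B and C were not stable. With the hybridization-control block B was 0.02, and after a second quantile normalization C was 0.02.

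Khdrbs2, the close relative of Khdrbs3, did not show its step. It read 4.79, 4.61 and 4.75 on the Ind-8 arrays, 4.94, 4.79 and 5.01 on the Con-3 arrays and 5.23 and 4.87 on the tI-3 arrays, all above the dim limit by less than 1 log2 unit. Ind-8 had the lowest mean, 4.72 ± 0.09 (SD, n = 3), followed by Con-3 at 4.91 ± 0.11 (SD, n = 3) and tI-3 at 5.05 ± 0.25 (SD, n = 2), and neighbouring lines in this order did not differ beyond the test's threshold. The differences were -0.20 in A (95% interval -0.45 to 0.06), -0.33 in B (95% interval -0.61 to -0.05) and 0.13 in C (95% interval -0.15 to 0.41). By limma the adjusted p-values were 0.261, 0.071 and 0.483. The B difference lay near the threshold and passed with the replicate number as a block (-0.36, adjusted p = 0.0254), with the arrays centred on a common median (-0.34, adjusted p = 0.05) and without tI-3 replicate 2 (-0.51, adjusted p = 0.0443). Over the limma alternatives the adjusted p of B ran from 0.0254 to 0.708. The B difference itself ran from -0.51 to -0.15. Without tI-3 replicate 1 its C difference was -0.04, so that 1 array set its sign.

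Qk was read by 2 distinct probe sets that behaved differently. The one shared by NM_001159516 and NM_021881 read 6.78, 6.27 and 6.19 in Ind-8, 6.49, 5.81 and 5.88 in Con-3 and 5.35 and 5.25 in tI-3. Both tI-3 arrays lay under the other 6, while Ind-8 and Con-3 overlapped. The other, for NM_001159517, read 9.75, 9.75 and 9.66 in Ind-8, 9.98, 9.67 and 9.60 in Con-3 and 9.82 and 9.73 in tI-3, with all lines overlapping.

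Quaking transcripts share most of their coding sequence and differ at the 3′ end, so that probe sets for different transcripts can move apart. Whether the use of these transcripts differed between the lines was not tested. In tI-3 the first probe set averaged 5.30 ± 0.07 (SD, n = 2), against 6.41 ± 0.32 (SD, n = 3) in Ind-8 and 6.06 ± 0.37 (SD, n = 3) in Con-3. It was therefore higher in Ind-8 than in tI-3 by 1.12 ± 0.22, a 2.17-fold ratio (limma adjusted p = 0.00441; 95% interval 0.64 to 1.59). It was lower in tI-3 than in Con-3, by -0.77 ± 0.22 (adjusted p = 0.0253; 95% interval -1.24 to -0.29). In A the difference was 0.35 ± 0.19 and did not pass (adjusted p = 0.239; 95% interval -0.08 to 0.78). The NM_001159517 probe set gave -0.03 in A (95% interval -0.27 to 0.21), -0.05 in B (95% interval -0.33 to 0.22) and 0.02 in C (95% interval -0.25 to 0.30). The limma adjusted p-values were 0.874, 0.756 and 0.904. Over the alternatives B of this probe set reached -0.29 and C reached 0.18, and no difference passed.

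Among the 4 tested STAR profiles, 0 were thus called in A by limma, where 10.9% of all probe sets were called higher and 11.0% lower, and 1, that of Khdrbs1, had an unadjusted p under 0.05. In B, 1 of 4 was called, as higher in Ind-8, where 15.6% of all probe sets were called higher and 15.5% lower. In C, 1 of 4 was called, as lower in tI-3, where 10.2% were called higher and 15.1% lower. With shares of this size across the table, 1 call among 4 is not particular to the family. The rank product test, by which the study made its own calls, was rerun here from new code with a limit of 0.05 on the estimated share of false positives (pfp). It was more sparing and called 0 of the 4 in each comparison. It called 2.15% of all probe sets higher and 1.44% lower in A, 1.56% and 0.395% in B, and 0.630% and 1.58% in C. The Qk probe set of NM_021881 had a pfp of 0.0554 in B and 0.191 in C by this test.

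**Figure D3:**
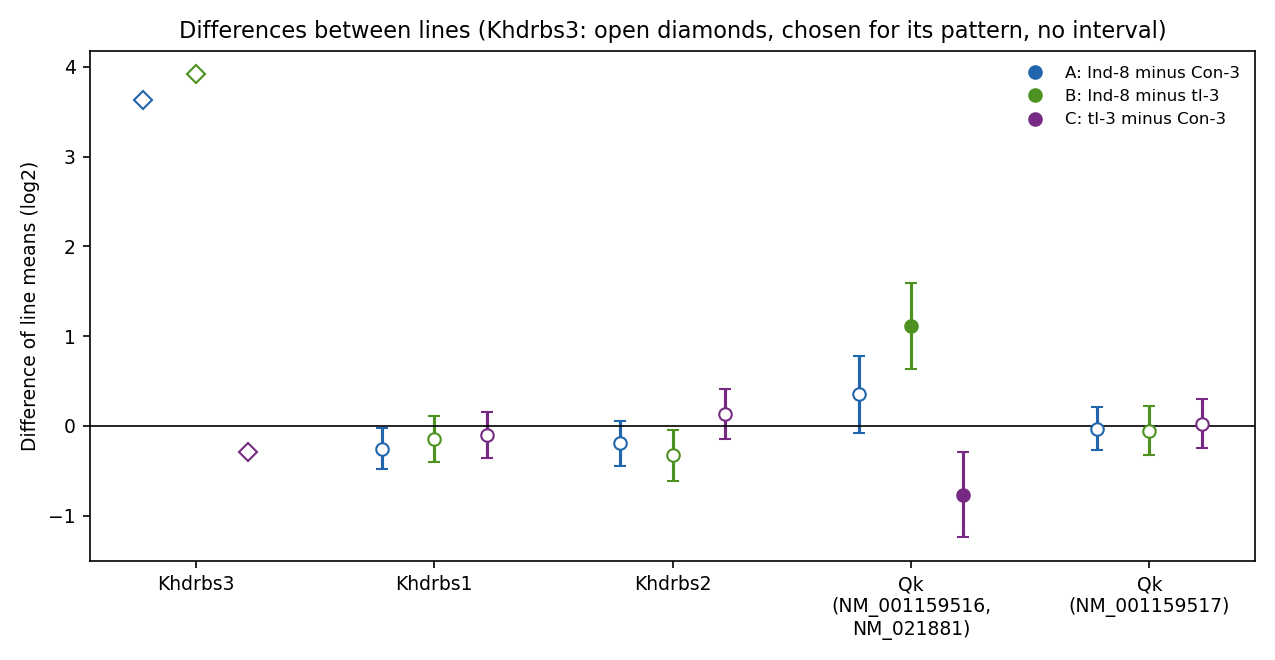
Differences between line means (log2, vertical axis) of the 5 distinct STAR family probe sets in comparisons A, B and C, with 95% intervals from limma. Filled points passed the adjusted threshold, which only B (1.12) and C (-0.77) of the Qk probe set of NM_001159516 and NM_021881 did among those tested, and open diamonds mark Khdrbs3, which has no interval or test.

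Both Qk calls depended on how the arrays were grouped. With the hybridization-control block, B was 0.85 (adjusted p = 0.244) and C was -0.59 (adjusted p = 0.232). Within the low block A was 0.26, within the high block C was -0.59 with 1 Con-3 array, and B could not be had within a block. Without Con-3 replicate 3 the B difference was 1.12 (adjusted p = 0.00597) and the C difference -0.86 (adjusted p = 0.0297). Over all alternatives the limma adjusted p or pfp ran from 0.000515 to 0.244 in B and from 0.0023 to 0.232 in C. The C call was lost without Con-3 replicate 1 (-0.55, limma adjusted p = 0.053), without tI-3 replicate 1 (-0.82) and without tI-3 replicate 2 (-0.72). With 1 array left out, the A difference ran from 0.17 to 0.56. It passed without Con-3 replicate 1 (0.56, limma adjusted p = 0.037).

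The unequal change of the 2 Qk probe sets was also read within each array. The first minus the second was -2.98, -3.48 and -3.47 in Ind-8, -3.49, -3.86 and -3.71 in Con-3 and -4.47 and -4.48 in tI-3. These differences did not overlap between the lines. The means were -3.31, -3.69 and -4.48, which differ by 0.38 in A, 1.17 in B and -0.79 in C. An exact two-sided permutation test over arrays, chosen after the values were seen, gave p = 0.1 in A and p = 0.2 in B and C. These are the smallest values that so few arrays allow, so the test adds nothing to the description. Levels of the 2 probe sets are not comparable with each other, since each binds its own probes.

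Both Qk probe sets belong to one gene, and the stretch before its annotated start is shown for that reason. It spans chr17:10319362-10319611 on the minus strand of GRCm38.p6 (RefSeq), the 250 bases upstream of the start, and 2 of the 4 members, Qk and Khdrbs2, had an entry in this table. Capitals mark GC boxes, read as GGGCGG or, on the other strand, CCGCCC.
Qk: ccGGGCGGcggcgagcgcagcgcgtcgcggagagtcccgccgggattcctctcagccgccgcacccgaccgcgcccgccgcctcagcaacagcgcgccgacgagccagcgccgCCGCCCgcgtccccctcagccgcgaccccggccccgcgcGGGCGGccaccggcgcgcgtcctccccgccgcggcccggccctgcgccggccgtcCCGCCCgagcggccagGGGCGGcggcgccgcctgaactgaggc
The window holds 5 GC boxes, 3 read as GGGCGG and 2 as CCGCCC, and 32.7% of 32851 RefSeq promoter windows of this length hold at least 1. G and C make up 84.8% of its bases, against a median of 52.4%, and it holds 52 CpG dinucleotides, against a median of 6. The match is a description of the sequence and was not tied to the arrays.

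Genes with the profile most like that of the Qk probe set of NM_021881 were Sash1, a scaffold protein (Pearson r = 0.991), Rap1gap2, which inactivates the GTPase Rap1 (0.984), Zfp317, a zinc finger protein (0.979), Tmeff1, a transmembrane protein (0.977), and Rgs19, a regulator of G protein signalling (0.973). They came from the same 963 candidates, over the same 8 arrays. Sash1 averaged 10.74 in Ind-8, 10.37 in Con-3 and 9.69 in tI-3, and Rgs19 averaged 8.78, 8.51 and 7.56.

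**Figure D4:**
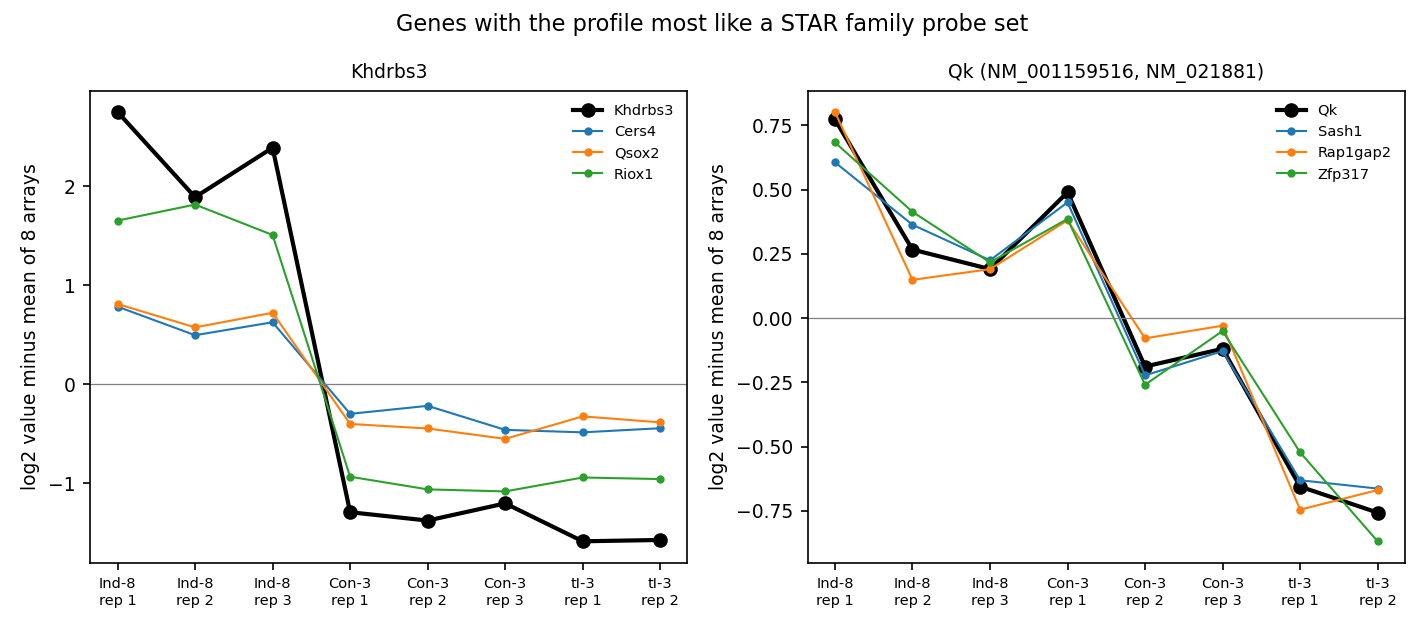
Log2 values minus the mean over the 8 arrays (vertical axis) of Khdrbs3 and of the Qk probe set of NM_001159516 and NM_021881 (black) and of the 3 genes with the highest Pearson r with each (colours). Lines only join the points of a gene across arrays, Khdrbs3 with its 3 genes steps down after the Ind-8 arrays, and Qk with its 3 genes is lowest on the tI-3 arrays.

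Around Qk, the gene order held Pde10a, a phosphodiesterase, which was higher in Ind-8 than in Con-3 by 0.58 ± 0.08 (limma adjusted p = 0.00109). It was also higher in Ind-8 than in tI-3, by 0.28 ± 0.09 (adjusted p = 0.0445), and in tI-3 than in Con-3, by 0.30 ± 0.09 (adjusted p = 0.0432). Its mean in Con-3, 4.17, was under 4.30, so the 2 differences from Con-3 start from a dim level. Agpat4, an acyltransferase, was higher in Ind-8 in A, by 0.40 ± 0.10 (adjusted p = 0.0152), and in B, by 0.52 ± 0.11 (adjusted p = 0.0076). Beside Khdrbs1, which was not called, 6 of 8 neighbours were called lower and 1, Adgrb2, higher in tI-3 than in Con-3, where 15.1% of all probe sets were called lower and 10.2% higher, the largest fall being that of Tmem39b at -0.79 ± 0.11 (adjusted p = 0.000576). Adgrb2 was dim, with a mean of 3.98 in Con-3. In A, 2 of these 8 neighbours were called, both lower, and in B 3 were called higher and 1, Adgrb2, lower. Of the 8 neighbours of Khdrbs2, Phf3 was higher in tI-3 by 0.55 ± 0.12 (adjusted p = 0.00802) and the others were not called in C. Phf3 was called lower in Ind-8 in B, at -0.58 ± 0.12 (adjusted p = 0.00637), and Bag2 higher in A, by 0.43 ± 0.09 (adjusted p = 0.00731), and in B, by 0.46 ± 0.10 (adjusted p = 0.00803).

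Markers of smooth muscle cells moved with the Qk call. Of 8 such markers, 6 were called higher and 1 lower in Ind-8 than in tI-3, and 4 were called lower in tI-3 than in Con-3. In A, 2 were called higher in Ind-8. Of all probe sets 21.9% were called in A, 31.1% in B and 25.4% in C. Summed on the linear scale and expressed as log2, they reached 14.69 to 14.98 on the Ind-8 arrays, 14.55 to 14.85 on the Con-3 arrays, and 13.46 and 13.50 on the tI-3 arrays. Acta2, smooth muscle actin, was the most abundant, with means of 14.07, 14.09 and 13.21 in Ind-8, Con-3 and tI-3. Cnn1, or calponin, fell from 11.58 in Ind-8 and 11.24 in Con-3 to 7.87 in tI-3, and Actg2 from 10.05 and 9.39 to 5.10. Myh11, a defining marker of mature smooth muscle, was dim in each line. Of 12 fibroblast markers 3 were called higher and 1 lower in A, 5 higher and 1 lower in B, and 4 higher and 3 lower in C, so that they did not run one way in tI-3 against Con-3. Col3a1 averaged 8.80 in Ind-8, 9.07 in Con-3 and 6.38 in tI-3. The part of these changes in the Qk result was not tested.

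Of the oligodendrocyte and Schwann cell, germ cell, epithelial, endothelial and leukocyte markers, 0 averaged above the median probe set over the 8 arrays. By limma 1 oligodendrocyte and Schwann cell marker was called higher and 1 lower in A, 2 were lower in B and 0 were called in C, where 1 had an unadjusted p under 0.05 and the rank product test called 0. Of the germ cell and the epithelial markers limma and the rank product test called 0 in each comparison, while 1 of each list in B and 3 epithelial markers in C had an unadjusted limma p under 0.05. Endothelial markers had 1 lower in A, 1 lower in B and 1 higher in C, and leukocyte markers 2 lower in B and 1 higher in C. These counts stand beside 21.9% of all probe sets called in A, 31.1% in B and 25.4% in C. Of the 6 epithelial markers, Epcam, Cdh1, Krt18 and Esrp1 were dim, and Cldn4, the most abundant, averaged 4.95. Of the 6 endothelial markers Pecam1, Tek, Emcn and Cdh5 were dim, and Kdr, the most abundant, averaged 5.84 in Ind-8, 6.16 in Con-3 and 6.60 in tI-3. Of the 5 leukocyte markers with a named probe set Ptprc and Itgam were dim, and Cd3e, the most abundant, averaged 5.45. The most abundant oligodendrocyte and Schwann cell marker was Sox10, at 5.52, and the most abundant germ cell marker Tex14, at 4.95. Neuron markers summed to between 10.76 and 11.16 on the Ind-8 and Con-3 arrays and to 11.57 and 11.41 on the tI-3 arrays, and Stmn2 was the most abundant of them. Of the neuron markers 1 was called higher in A, 1 higher and 2 lower in B, and 2 higher and 1 lower in C.

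Other KH-domain proteins, the wider family around STAR proteins, had the most calls in C. Of 31 listed genes 29 had a named probe set, and each gene was read by its brightest one. In C, 3 were called higher and 11 lower in tI-3, with a median difference of -0.17 against 0.04 over all probe sets. In B, 6 were higher and 3 lower in Ind-8, with a median of 0.17 against -0.06. In A, 1 was higher and 7 were lower in Ind-8, with a median of -0.07 against -0.06. The called shares were 27.6% in A, 31.0% in B and 48.3% in C, beside 21.9%, 31.1% and 25.4% of all probe sets. Of the 29 genes 1 was dim by its mean, against 5631 of all 22523 probe sets, which also hold several rows for some genes. List shares and table shares, here and below, are therefore not strictly alike. The A count of 8 fell to 5 without any one of Con-3 replicates 1 and 2 and Ind-8 replicates 2 and 3.

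Bicc1, an RNA-binding regulator of translation, averaged 10.73 in Ind-8, 11.40 in Con-3 and 9.69 in tI-3, and its C difference was -1.71 ± 0.11 (limma adjusted p = 9.45e-06). Tdrkh, a factor of the piRNA pathway, gave -1.64 ± 0.12 (adjusted p = 1.93e-05) and Pcbp3, a poly(C)-binding protein, -1.44 ± 0.12 (adjusted p = 4.4e-05). All 3 were also the largest rises of the list in B, at 1.04, 1.17 and 1.04. The opposite pattern was seen for Ankhd1, which was lower in Ind-8 than in tI-3 by -1.20 ± 0.12 (adjusted p = 0.000116), and for Fmr1, the fragile X protein, at -0.89 ± 0.19 (adjusted p = 0.00665). Fubp1, which binds single-stranded DNA and RNA, was lowest in Ind-8, with an A difference of -0.68 ± 0.10 (adjusted p = 0.0012) and a B difference of -1.01 ± 0.11 (adjusted p = 0.000262). Krr1, needed for ribosome assembly, was lower in Ind-8 than in Con-3 by -0.67 ± 0.10 (adjusted p = 0.00126). The single rise in A was that of Mex3a, 0.35 ± 0.10 (adjusted p = 0.0348), which was not called without Con-3 replicate 3 (0.33, adjusted p = 0.0961). Sf1, the branch point binding protein and nearest relative outside the 4 members, averaged 10.02, 10.25 and 9.88 in Ind-8, Con-3 and tI-3. Its C difference of -0.37 ± 0.12 just passed (adjusted p = 0.0434). Nova2, a neuronal splicing factor, was dim, with means of 3.87 to 3.98, and Nova1 and Hnrnpk were not analysed here.

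Partners and modifiers of STAR proteins, among them the kinases that phosphorylate Khdrbs1, had 23 of 27 listed genes with a named probe set. In A, 3 were called higher and 4 lower in Ind-8, with a median of -0.05. In B, 5 were higher and 2 lower, with a median of 0.04, and in C, 2 were higher and 4 lower in tI-3, with a median of -0.12. The called shares, 30.4% in A, 30.4% in B and 26.1% in C, lay beside 21.9%, 31.1% and 25.4% of all probe sets, so those in B and C were near the background. Fyn, a Src family kinase, averaged 9.98 in Ind-8, 10.03 in Con-3 and 8.65 in tI-3, with differences of 1.33 ± 0.12 in B (limma adjusted p = 8.48e-05) and -1.38 ± 0.12 in C (adjusted p = 6.25e-05). Frk, another Src-related kinase, was higher in Ind-8 than in Con-3 by 0.86 ± 0.17 (adjusted p = 0.00511) and than in tI-3 by 0.97 ± 0.19 (adjusted p = 0.00433). Rbmx, a nuclear RNA-binding protein that associates with STAR proteins, averaged 6.76, 7.99 and 7.25. Its A difference of -1.22 ± 0.13 (limma adjusted p = 0.000152) was the largest fall of the list in that comparison. Cdk1, the mitotic kinase, was lower than in Con-3 both in Ind-8 (-0.56 ± 0.09, adjusted p = 0.00184) and in tI-3 (-0.60 ± 0.10, adjusted p = 0.00199). Pik3r1, a regulatory subunit of phosphoinositide 3-kinase, was higher in tI-3 than in Con-3 by 0.65 ± 0.10 (adjusted p = 0.00143). The A count of 7 fell to 3 without any one of Con-3 replicates 2 and 3 and Ind-8 replicates 1 and 2. Without Con-3 replicate 3 the calls of Rasa1 (0.57, adjusted p = 0.119) and Grb2 (-0.59, adjusted p = 0.0564) were among those lost. The B count of 7 fell to 4 without any one of Ind-8 replicates 1 and 2 and tI-3 replicates 1 and 2.

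Transcripts known as targets of STAR proteins were read for their level only, since these probe sets do not separate spliced forms. All 28 had a named probe set. In A, 6 were called higher and 5 lower in Ind-8, with a median of -0.13. In B, 2 were higher and 4 lower, with a median of -0.14, and in C, 5 were higher and 3 lower in tI-3, with a median of 0.02. The called shares were 39.3% in A, 21.4% in B and 28.6% in C, against 21.9%, 31.1% and 25.4% of all probe sets. By these figures B lay under the table share and C near it, with the limit given for the KH-domain list. The B count of 6 fell to 2 without tI-3 replicate 1 and to 1 without tI-3 replicate 2, where the C count of 8 fell to 4. Egr2, a transcription factor of myelinating Schwann cells, averaged 6.72 in Ind-8, 5.26 in Con-3 and 5.25 in tI-3. Its differences were 1.47 ± 0.32 in A (limma adjusted p = 0.00898) and 1.48 ± 0.36 in B (adjusted p = 0.0121). Sgce, a sarcoglycan, was lowest in Con-3, with 0.90 ± 0.14 in A (adjusted p = 0.00174) and 1.47 ± 0.16 in C (adjusted p = 0.000182). Rps6kb1, the S6 kinase, was highest in Con-3, with -0.42 in A (adjusted p = 0.00846) and -0.56 in C (adjusted p = 0.00287). Foxo1, a transcription factor, was lowest in Con-3, as Sgce was, with 0.59 ± 0.13 in A (adjusted p = 0.0105). Myocd, the coactivator of smooth muscle genes, averaged 4.41, 4.98 and 4.27, the last under the dim limit. It was lower than in Con-3 both in Ind-8 (-0.58 ± 0.15, adjusted p = 0.0195) and in tI-3 (-0.71 ± 0.17, adjusted p = 0.0108).

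Among the neurexins, whose exons Khdrbs2 and Khdrbs3 control in neurons, Nrxn2 and Nrxn3 were below the median level of all probe sets. Nrxn2 averaged 5.15 in Ind-8, 5.09 in Con-3 and 5.61 in tI-3, and was lower in Ind-8 than in tI-3 by -0.46 ± 0.10 (limma adjusted p = 0.00844). Nrxn3 was dim, with means of 3.52 to 3.72. Ccnd1, cyclin D1, was higher in Ind-8 than in Con-3 by 0.31 ± 0.09 (adjusted p = 0.0272), and Bcl2l1, whose spliced forms protect from or promote cell death, by 0.33 ± 0.10 (adjusted p = 0.0352). Cd44, the hyaluronan receptor, was higher in Ind-8 than in tI-3 by 0.48 ± 0.15 (adjusted p = 0.033), a call lost after a second quantile normalization (0.36, adjusted p = 0.105). Cdkn1b, the p27 inhibitor, averaged 6.93, 6.78 and 6.77 and was not called, and neither was Mbp, the myelin basic protein, at 4.70, 4.89 and 5.00. Srsf1, a splicing factor, was lower in Ind-8 than in Con-3 by -0.42 ± 0.08 (adjusted p = 0.00488).

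Other regulators of alternative splicing had 40 of 45 listed genes with a named probe set. The called shares were 35% in A, 27.5% in B and 30% in C, beside 21.9%, 31.1% and 25.4% of all probe sets. In A, 2 were higher and 12 lower, with a median of -0.14 against -0.06 over all probe sets. In B, 6 were higher and 5 lower, with a median of -0.09, and in C, 2 were higher and 10 lower in tI-3, with a median of -0.10 against 0.04. The B count of 11 fell to 6 and 7 without Ind-8 replicates 1 and 2, and to 5 and 4 without tI-3 replicates 1 and 2, where the C count of 12 fell to 7 and 6. Mbnl3, a muscleblind protein, averaged 3.98 in Ind-8, 5.73 in Con-3 and 3.87 in tI-3, with an A difference of -1.75 ± 0.08 (limma adjusted p = 7.58e-07) and a C difference of -1.86 ± 0.09 (adjusted p = 1.07e-06). Its level was dim in both lines derived with the p53 cDNA, so these falls are measured against the floor of the arrays. Celf4 was highest in Con-3 as well, at 7.15, and gave -1.02 ± 0.13 in A (adjusted p = 0.000629) and -1.72 ± 0.15 in C (adjusted p = 5.32e-05). Mbnl2 was lower in tI-3 than in Con-3 as well, by -1.11 (adjusted p = 0.000214). Mbnl1 went the other way and was higher in tI-3 than in Con-3 by 0.69 ± 0.11 (adjusted p = 0.00153).

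Ptbp2, the neuronal polypyrimidine tract binding protein, averaged 8.96 in Ind-8, 8.97 in Con-3 and 9.89 in tI-3, so that B was -0.93 ± 0.11 (limma adjusted p = 0.000359) and C 0.92 ± 0.11 (adjusted p = 0.000331). Its widely expressed relative Ptbp1 averaged 12.06, 12.28 and 12.11 and was not called. Celf5 was the largest rise of the list in A, at 0.71 ± 0.18 (adjusted p = 0.0199), and in B, at 0.74 ± 0.21 (adjusted p = 0.0221), from a dim level in Con-3 and tI-3. Elavl2, an RNA-binding protein of neurons, was lowest in Ind-8, with -0.79 ± 0.18 in A (adjusted p = 0.00987) and -0.70 ± 0.20 in B (adjusted p = 0.0238). Rbfox2 averaged 8.27, 8.06 and 8.28 and was not called in any of the 3 comparisons.

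**Figure D5:**
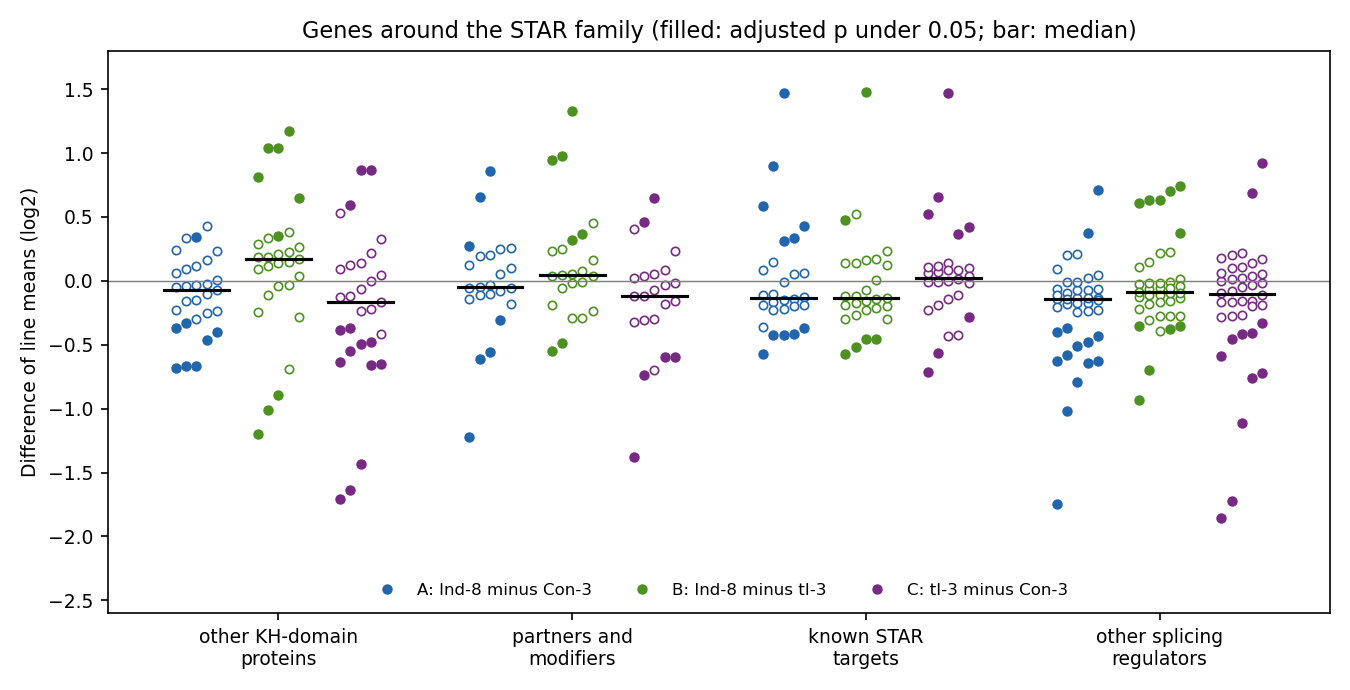
Differences between line means (log2, vertical axis) of each gene in the 4 lists around the STAR family, in comparisons A, B and C, with 1 point for each gene, filled where the limma adjusted p was under 0.05, and a bar at the median. Medians lie between -0.17 and 0.17, the lowest points are Mbnl3 and Celf4 among the splicing regulators and Bicc1 among the KH-domain proteins, and the highest are Egr2 and Sgce among the known targets.

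With the hybridization-control block, the calls in B were mostly lost across the table. All probe sets called higher fell from 3509 to 496 and those called lower from 3500 to 212. In the lists, B calls went from 9 to 4 for the KH-domain proteins and from 7 to 1 for the partners. They went from 6 to 0 for the known targets and from 11 to 0 for the splicing regulators, where 1 and 4 genes had an unadjusted limma p under 0.05 with the block, and where the rank product test, run without it, called 1 and 0. In C, all probe sets called higher fell from 2304 to 1139 and those called lower from 3411 to 1927. The C calls went from 8 to 2 for the known targets and from 12 to 7 for the splicing regulators. Partners in A went from 7 to 3. Whether the control level marks a step of sample handling was not tested.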

How the data were processed

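Expression was measured on 8 arrays, 1 for each RNA preparation (3 Ind-8, 3 Con-3 and 2 tI-3). The deposited values are log2 expression, which the authors obtained with RMA after regrouping the probes by the RefSeq transcript they match. The version of RMA is not given in the sources used here. Control probe sets (64 of 22587) were left out. RefSeq accessions were named from a RefSeq gene table of GRCm38.p6, used for names and gene order, which matched 18294 of 22523 probe sets (81.2%).

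The means of the 3 lines were fitted with limma 3.58.1 in R 4.3.3 on all 8 arrays with its default prior and Benjamini-Hochberg adjustment. Rank products were re-implemented in Python 3.11.15 (numpy 2.4.6, scipy 1.17.1, pandas 2.3.3) with the values of the probe sets shuffled inside every array 100 times. Figures were drawn with matplotlib 3.10.9. Both tests were tested on simulated data. The members and the gene lists were chosen with earlier results of these data known.

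Listed genes and markers were read by the probe set with the highest mean. The shares over all probe sets were not limited in this way and serve only as an approximate background. Named genes were all members, the 3 largest rises and 3 largest falls among the called genes of each list and comparison, genes that check the labels, a set of STAR relatives and targets named whatever their values, the 5 genes most like each member profile whose line means spanned at least 1 log2 unit, and the 4 neighbours on each side of each member. Not all are given, and the neighbours of Khdrbs1, Khdrbs2 and Qk only in part. No set test was run on any list.

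Alternatives were the replicate number as a block, each array left out, the compared lines only, an intensity trend in the prior, probe sets above the 25th percentile, arrays quantile-normalized again or centred, identical profiles counted once, control probe sets kept, a block by hybridization controls, a log2 difference of at least 1, the rank product test, and the mean of a gene's probe sets. An array has no sequencing depth. The number of arrays limits the precision.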

Additional observations from a re-analysis of the deposited data

Results flagged for a closer look

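The control probe sets for 18S ribosomal RNA, which enter no comparison, averaged 10.6273 on Con-3 replicate 3, against 5.58 to 6.46 on the other 7 arrays. The level drew attention as a signal outside the main measurement that stood above that of the other control-line arrays. The cause was not tested. Differences of Khdrbs3 and of the Qk probe set of NM_021881 without this array are given beside their results.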

How the results depend on the processing

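Of 216 values of the 12 tested member differences under alternatives, 196 kept their direction and their side of the threshold, 7 fell short of it, 5 passed it and 8 reversed. The 51 values of Khdrbs3 ran from 3.43 to 3.86 in A, from 3.72 to 4.15 in B and from -0.38 to -0.24 in C. They are a description only, since Khdrbs3 was chosen for being high in Ind-8 and C lies between dim levels. Of 1296 values of 72 named list differences, 1111 kept their call and 185 lost it, 55 of them with the rank product test and 30 with the hybridization-control block. The cause of the changes below was not tested unless stated.

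With the hybridization-control block, the Qk probe set of NM_001159516 and NM_021881 gave 0.85 in B and -0.59 in C and was not called, and Khdrbs1 gave 0.0198 in B. All probe sets called were 496 higher and 212 lower in B and 1139 higher and 1927 lower in C. KH-domain proteins had 4 calls in B, partners 3 in A and 1 in B, known targets 0 in B (1 at an unadjusted limma p under 0.05) and 2 in C, and splicing regulators 0 in B (4 unadjusted) and 7 in C. By rank product, Qk (1.12 in B, -0.77 in C) was not called, with a pfp of 0.0554 and 0.191. After a second quantile normalization Khdrbs1 gave 0.0163 in C. With arrays centred, Khdrbs2 passed in B (-0.34).

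A log2 difference of at least 1 leaves fewer probe sets by construction. It left 367 higher and 97 lower in A, 552 and 129 in B, and 260 and 475 in C. In A it left 0 KH-domain proteins (13 at an unadjusted limma p under 0.05, 0 by rank product), 1 partner, 1 target and 2 splicing regulators. In B it left 5, 1, 1 and 0 (17 unadjusted, 0 by rank product), and in C 3, 1, 1 and 3.

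Replicate numbers were checked for pairing. Deviations from the line means of arrays with the same number correlated at 0.27, 0.0286 and 0.381 between Ind-8 and Con-3. They correlated between -0.225 and 0.205 for the other same-number pairs. Arrays of Ind-8 and Con-3 with different numbers correlated between -0.408 and 0.117. So few arrays do not settle whether the numbers pair the samples of these lines, and the main fit used no pairing. With the number as a block, Khdrbs2 passed in B (-0.36) and the Qk probe set of NM_001159517 gave -0.0291 in C.

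With 1 array left out, the Qk probe set of NM_001159516 and NM_021881 ranged from 0.17 to 0.56 in A and from -0.89 to -0.55 in C, and that of NM_001159517 from -0.108 to 0.086 in A and from -0.053 to 0.141 in C. Khdrbs1 ranged from -0.34 to -0.19 in A, and Khdrbs2 from -0.51 to -0.15 in B and from -0.045 to 0.312 in C. All probe sets called ranged from 1742 to 3608 higher and 1039 to 3760 lower in B, and from 1183 to 2304 higher and 1910 to 3389 lower in C. KH-domain proteins had 5 to 7 calls in A, partners 3 to 6 in A and 4 to 7 in B, targets 1 to 7 in B and 4 to 8 in C, and splicing regulators 4 to 13 in B and 6 to 12 in C. A lone tI-3 array is assumed to vary like the other lines. Signal over background limits Khdrbs3 in Con-3 and tI-3, which lay under the 25th percentile.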

Other observations

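The Qk probe set of NM_001159516 and NM_021881 varied inside the lines as well as between them. Replicate 1 was the highest array in Ind-8 (6.78, against 6.27 and 6.19) and in Con-3 (6.49, against 5.81 and 5.88), and the higher of the pair in tI-3 (5.35, against 5.25). The Qk probe set of NM_001159517 was also highest on replicate 1 in Con-3, at 9.98.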
